A study of Mus musculus with 10 samples.

Results

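The epithelial splicing regulators Esrp1 and Esrp2 and 5 genes with exons known to respond to them, Ctnnd1, Enah, Slk, Arhgef11 and Scrib, were followed from fibroblasts to pluripotent cells. The 7 genes were taken by symbol from the deposited transcript names, out of 45706 genes, and they hold 78 of the 109617 transcripts. Their levels were read as gene sums, and the splicing of the 5 targets as the share of a gene's estimated reads that fell on each transcript. These shares were not corrected for transcript length. RNA was sequenced from 5 stages of mouse cells on a C57BL/6 x 129 background, with 2 libraries a stage. The fibroblasts (MEF) carried a polycistronic cassette of Oct4, Klf4, Sox2 and Myc in the Col1a1 locus and the transactivator M2rtTA in ROSA26, and were grown without doxycycline. Cells at days 3, 6 and 9 (D3, D6, D9) had the same genotype and grew in ESC medium with doxycycline at 1 µg/ml and ascorbic acid at 50 µg/ml. D3 cells were unsorted, and D6 and D9 cells had been sorted as SSEA1-positive, a carbohydrate mark on the surface of early pluripotent cells. The embryonic stem cells (ESC) were the V6.5 line, a single line without the cassette, grown unsorted on irradiated feeder cells with LIF. The labels do not say that libraries of a stage came from separate cultures, so each p-value measures the spread between these libraries alone, which may be technical.

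Esrp1 and Esrp2 are RNA-binding proteins found mainly in epithelial cells, where they bind GU-rich sequence beside alternative exons and favour the inclusion of some exons and the skipping of others. The exons they act on lie often in genes of the cytoskeleton, cell junctions and cell polarity, and the loss of both factors in an epithelial to mesenchymal transition brings back the mesenchymal isoforms. Fibroblasts that are reprogrammed go the opposite way and take on epithelial genes before the pluripotency network is in place.

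The exons below are those whose use separates the epithelial from the mesenchymal isoforms of Enah, Slk and Ctnnd1, and to which the splicing results refer. They were read from the GENCODE M21 transcripts (GRCm38), with the cassette exon in capitals and 20 bases of the neighbouring exons of the transcript in lower case. For Ctnnd1 the capitals mark the 195 coding bases of a 289-base exon, which begin with the start codon, and the bases before it are not shown.
Enah, 63-base exon of Enah-009: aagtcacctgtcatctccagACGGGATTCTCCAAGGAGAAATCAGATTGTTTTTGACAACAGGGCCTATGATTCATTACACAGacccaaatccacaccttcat
Slk, 93-base exon of Slk-002: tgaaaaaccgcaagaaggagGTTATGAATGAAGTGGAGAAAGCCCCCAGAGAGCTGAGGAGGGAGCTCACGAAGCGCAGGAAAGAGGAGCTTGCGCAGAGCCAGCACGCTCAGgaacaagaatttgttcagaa
Ctnnd1, coding part of the 289-base exon of Ctnnd1-004: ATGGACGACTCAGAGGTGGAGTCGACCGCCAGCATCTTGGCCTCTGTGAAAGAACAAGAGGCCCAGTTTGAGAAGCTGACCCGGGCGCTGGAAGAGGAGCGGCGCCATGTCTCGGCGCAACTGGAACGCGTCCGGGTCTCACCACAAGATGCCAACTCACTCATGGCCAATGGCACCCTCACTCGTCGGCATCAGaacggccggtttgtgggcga
The Enah exon lies at chr1:181911597-181911659 on the minus strand. The Slk exon lies at chr19:47627648-47627740 on the plus strand. The coding part of the Ctnnd1 exon lies at chr2:84624270-84624464 on the minus strand, inside the exon at chr2:84624270-84624558. The 63 and 93 bases of the Enah and Slk exons are whole codons in number, so either form keeps the reading frame. A Ctnnd1 transcript that skips the 289-base exon lacks this start codon.

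Libraries held 29585876 to 38275024 estimated reads. The summed level of 10 fibroblast markers was 47316 to 48744 CPM (reads relative to library depth, scaled by TMM) in MEF, 3254 to 3285 in D3, 75.6 to 77.3 in D6 and 47.2 to 51.1 in D9. In ESC it was 4192 to 4341 CPM, 8.88% of the MEF level, with 9 of the 10 markers at 1 CPM or more. The summed level of 8 epithelial markers was 15.2 to 17.9 CPM in MEF, 16.3 to 18.0 in D3, 265 to 271 in D6, 1405 to 1468 in D9 and 602 to 603 in ESC. The 8 pluripotency markers summed to 2.06 to 2.40 CPM in MEF, 346 to 349 in D9 and 3994 to 4076 in ESC. No blood marker of 4 reached a mean of 1 CPM in any stage, and the 3 endothelial markers summed to at most 22.5 CPM outside ESC and to 97.2 to 103 in ESC, where Pecam1 alone passed 1 CPM. In these bulk samples, fewer cells with a transcript and less of it in each cell cannot be told apart. Nor can day and sorting in any difference between D3, which was unsorted, and the sorted D6 and D9.

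Esrp1 was nearly silent in fibroblasts and in unsorted D3 cells, was present in sorted D6 cells and was highest in D9 (gene at chr4:11331933-11386783). It was read at 0.0369 and 0.0610 CPM in MEF, from 1 and 2 reads, and at 0.135 and 0.0887 CPM in D3, from 5 and 3 reads. The level was 8.53 and 8.26 CPM in D6, 85.4 and 82.1 in D9, and 13.5 and 14.2 in ESC. Both D9 libraries lay above both ESC libraries, these above both D6 libraries, and these far above D3 and MEF, with no overlap. D3 and MEF, the lowest neighbours, did not differ by edgeR's quasi-likelihood test (log2 fold change 1.11 ± 0.67 SE, adjusted p = 0.268), and their pooled reads gave a ratio of 2.25 with a 95% counting interval of 0.540 to 13.2. From D3 to D6 the gene rose by a log2 fold change of 6.17 ± 0.18 (edgeR adjusted p = 1.83e-12), and the pooled reads gave a ratio of 74.5 (95% counting interval 37.5 to 173). The further rise from D6 to D9 was 3.32 ± 0.06 (edgeR adjusted p = 2.16e-13). ESC stood below D9 by a log2 fold change of -2.59 ± 0.06 (edgeR adjusted p = 2.68e-14). Over the 3 MEF reads, the pooled ratio was 1668 in D9 (95% counting interval 570 to 8089) and 277 in ESC (94.4 to 1344). These intervals cover counting error only.

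Esrp2 took another path at the start and the same one later (gene at chr8:106130319-106136974). It was present in MEF at 1.92 and 1.52 CPM, against 0.512 and 0.532 CPM in D3. It stood at 2.53 and 2.69 CPM in D6, 22.4 and 20.8 in D9, and 5.72 and 5.31 in ESC. The order of the stages was D9, ESC, D6, MEF and D3, with no overlap between neighbours, though D6 with MEF and ESC with D6 were not tested. From MEF to D3 Esrp2 fell by 1.71 on the log2 scale (SE 0.22, edgeR adjusted p = 7.64e-06). It then rose by 2.32 ± 0.20 to D6 (edgeR adjusted p = 1.65e-07) and by 3.05 ± 0.12 to D9 (edgeR adjusted p = 3.11e-10). ESC were lower than D9 by a log2 fold change of -1.97 ± 0.11 (edgeR adjusted p = 1.25e-09) and higher than MEF by 1.69 ± 0.15 (edgeR adjusted p = 8.84e-08). The levels of the factors were not compared with each other per length. Esrp2-008, a processed transcript of 276 bases, took 2.63% and 5.29% of the reads of Esrp2 in D9 but 60.2% and 75.1% of its TPM, while the coding form Esrp2-001 took 88.8% and 88.1% of the reads.

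**Figure D1:**
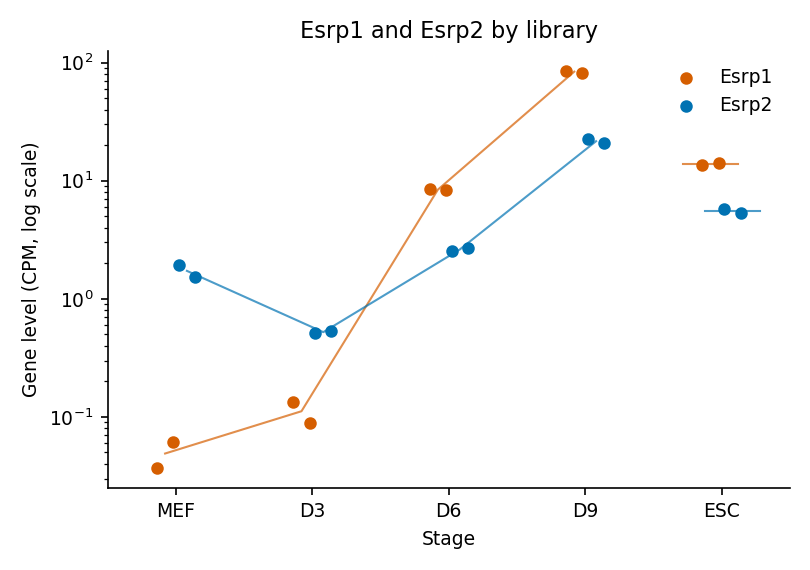
Gene level of Esrp1 and Esrp2 in each library (CPM, log axis) by stage. Each point is 1 library, lines join the means from MEF to D9 and the short bar marks the ESC mean. Esrp1 goes from 0.0369 and 0.0610 CPM in MEF to 85.4 and 82.1 in D9, while Esrp2 falls to 0.512 and 0.532 CPM in D3 before it rises.

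The gene totals of the targets moved far less than those of the Esrp genes, and not in one direction. Ctnnd1 encodes p120-catenin, which holds cadherins at adherens junctions (chr2:84600071-84650765). It was at 509 and 504 CPM in MEF, 404 and 427 in D3, 417 and 418 in D6, 399 and 393 in D9 and 287 and 276 in ESC. The total was highest in MEF and lowest in ESC, and its widest difference, ESC with MEF at a log2 fold change of -0.85 ± 0.03, stayed under the minimum of 1 that a call required. Between D6 and D3 the libraries overlapped and the difference was 0.01 ± 0.03 (edgeR adjusted p = 0.929).

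Enah encodes Mena, an actin regulator of the Ena/VASP family (chr1:181896384-182019990). It was at 163 and 162 CPM in MEF, 238 and 246 in D3, 326 and 320 in D6, 275 and 274 in D9 and 449 and 435 in ESC. ESC libraries were the highest and MEF libraries the lowest, and ESC with MEF was called at 1.44 ± 0.03 (edgeR adjusted p = 1.89e-14). D9 with MEF differed by 0.76 ± 0.03, under the minimum fold. Scrib encodes a scaffold protein of basolateral polarity (chr15:76047158-76069784). It was at 56.1 and 49.3 CPM in MEF, 86.4 and 87.1 in D3, 115 and 113 in D6, 125 and 128 in D9, and 106 and 112 in ESC. All later libraries were above both MEF libraries, and the gene was called higher in D9 at 1.26 ± 0.05 (edgeR adjusted p = 1.24e-11) and in ESC at 1.05 ± 0.05 (edgeR adjusted p = 1.07e-10). The ESC call lay near the minimum fold and was lost without MEF replicate 2 (0.95).

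Slk and Arhgef11 were highest in MEF. Slk encodes a kinase of the Ste20 family that acts on microtubules and adhesions (chr19:47579678-47645246). It was at 138 and 129 CPM in MEF, 128 and 127 in D3, 117 and 110 in D6, 105 and 108 in D9, and 75.6 and 74.2 in ESC. The ESC libraries were the lowest, and the difference from MEF of -0.83 ± 0.04 was under the minimum fold. Arhgef11 encodes a guanine nucleotide exchange factor for RhoA (chr3:87617559-87738034). It was at 81.9 and 80.0 CPM in MEF, 69.5 and 70.4 in D3, 45.9 and 44.6 in D6, 38.8 and 36.5 in D9, and 44.9 and 45.6 in ESC. D9 libraries were lowest, and D9 with MEF was called at -1.11 ± 0.04 (edgeR adjusted p = 1.14e-11). That call lay near the minimum fold and ended under scaling by library size, where the difference was -0.82.

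**Figure D2:**
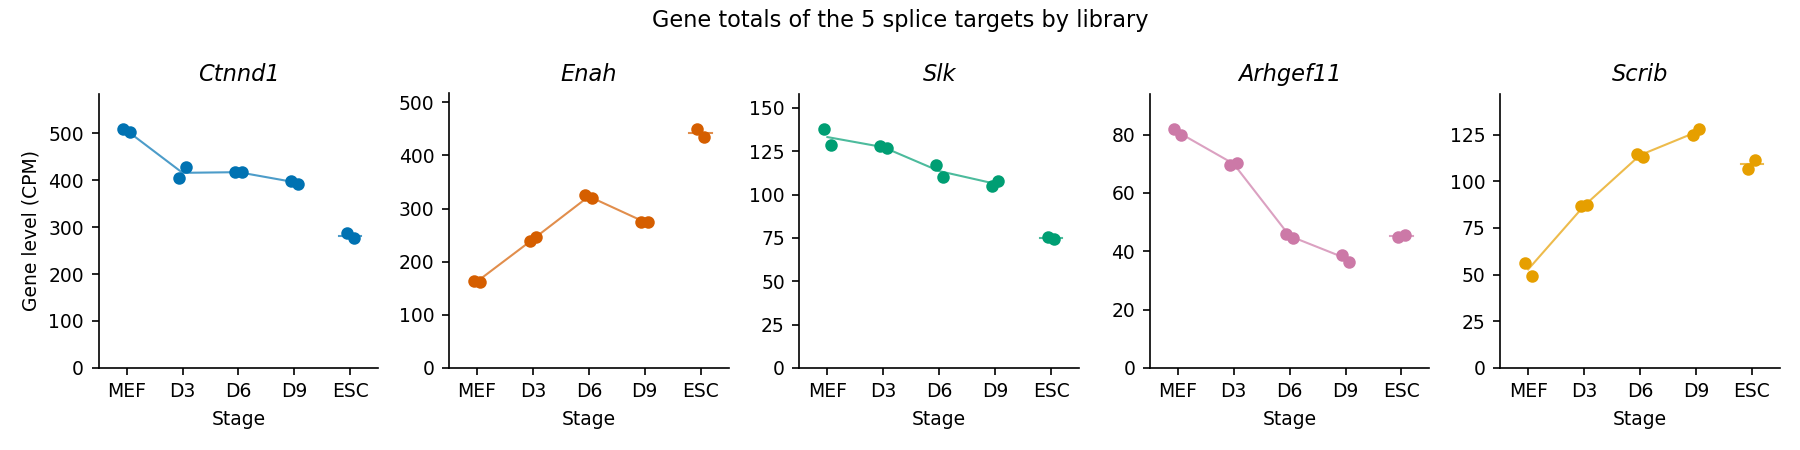
Gene level (CPM, axes from 0, each gene on its own scale) of Ctnnd1, Enah, Slk, Arhgef11 and Scrib in each library by stage. Points are single libraries, lines join means from MEF to D9 and the bar marks the ESC mean. Enah reaches 449 and 435 CPM in ESC, and Ctnnd1, Slk and Arhgef11 are highest in MEF.

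Counted over the 7 genes, calls stood beside a background that was large in most comparisons. All 7 passed the filter on low counts, Esrp1 through D6, D9 and ESC, so its differences from MEF and D3 were bound to be large. In D3 against MEF, 1 of 7 was lower (Esrp2), where 14.5% of the 20165 genes tested were lower. In D6 against D3, 2 of 7 were higher, both Esrp genes, where 9.26% of all genes were. In D9 against D6 the same pair was higher, where 5.18% of all genes were. In ESC against D9 the pair was lower, where 14.3% of all genes were. ESC against MEF gave 4 of 7 higher (both Esrp genes, Enah and Scrib), where 25.5% of all genes were higher. D9 against MEF gave 3 of 7 higher (both Esrp genes and Scrib), where 24.1% of all genes were, and 1 of 7 lower (Arhgef11), where 19.8% were. These comparisons reuse the MEF, D3, D6, D9 and ESC libraries, so they are not independent of each other.

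**Figure D3:**
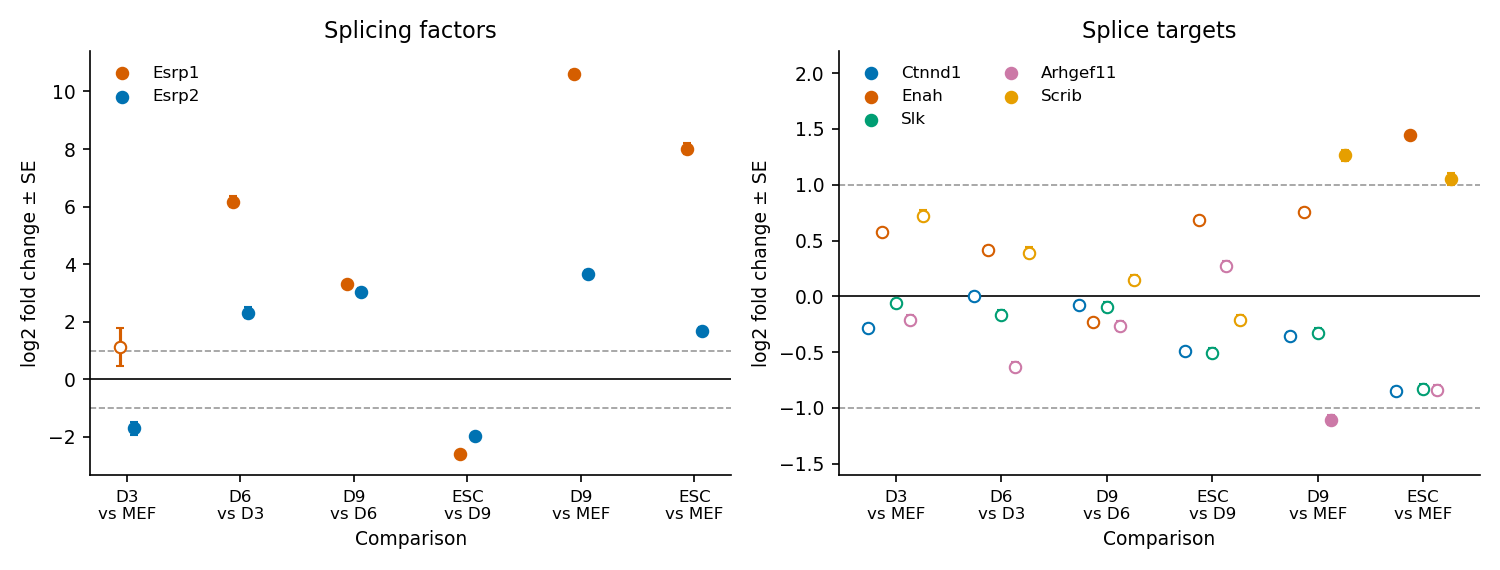
log2 fold change ± SE of the 7 genes in the 6 comparisons, with the Esrp genes on the left and the targets on the right on a narrower scale. Filled points passed both thresholds and dashed lines mark a log2 fold change of 1 in either direction. In D6 against D3 and D9 against D6 only the Esrp genes are filled, while Enah, Scrib and Arhgef11 are filled in comparisons with MEF.

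Of the 62 transcripts of the 5 targets, 40 passed the filter and were tested for a change in their share of the gene's reads, and 14 held at least 10% of the reads in some stage. A transcript was called at an adjusted p under 0.05 with a change of at least 10 percentage points. In D3 against MEF 1 of 40 was called, where 0.663% of the 46908 transcripts tested were. In D6 against D3 edgeR's diffSpliceDGE called 0 of 40, where 0.252% of all transcripts were called, and 6 of 40 had an unadjusted p under 0.05. Without the minimum change 2 of 40 passed there, Slk-002 (2.68 points, adjusted p = 0.000755) and Ctnnd1-019 (2.88 points, adjusted p = 0.0483). In D9 against D6 it called 3 of 40, where 0.0959% were called over all transcripts, and in ESC against D9 it called 2 of 40, where 0.680% were. In ESC against MEF 0 of 40 were called and 4 had an unadjusted p under 0.05, where 0.968% of all transcripts were called. limma on the ratio to the other transcripts called 0 in D6 against D3 and 1 in ESC against MEF. In D9 against MEF 3 of 40 were called, where 1.07% were called over all transcripts. Transcripts of 1 gene share its reads and are not independent of each other.

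Ctnnd1 showed the widest rearrangement, and it was seen in D9. Ctnnd1-001, a form with the 289-base exon and its start codon, held 13.2% and 19.2% of the gene's reads in MEF, 10.6% and 13.045% in D3, 23.5% and 16.4% in D6, 0.00847% and 0.525% in D9, and 20.7% and 22.5% in ESC. Both D9 libraries were near 0 and lay below every other library. The share in D9 was lower than in D6 by a change of -19.7 points (diffSpliceDGE adjusted p = 9.18e-09) and than in MEF by -16.0 points (adjusted p = 6.35e-09), and ESC were higher than D9 by 21.3 points (adjusted p = 2.13e-09). By limma on the ratio to the other transcripts the calls against D6 and ESC were lost (adjusted p = 0.210 and 0.0576). Ctnnd1-201, which skips the exon, held 8.95% and 5.26% in MEF, 9.83% and 7.24% in D3, 3.52% and 5.05% in D6, 20.7% and 27.9% in D9, and 7.16% and 4.89% in ESC. The D9 libraries were above all others, and D9 with D6 was called at 20.02 points (diffSpliceDGE adjusted p = 0.0380). Without any 1 of the 4 libraries the call was lost, at adjusted p of 0.0628 to 0.498 by diffSpliceDGE, and it was lost by limma on the ratio (0.0989). Ctnnd1-001 and Ctnnd1-201 differ by 335 bases found in the first alone, 289 of them the cassette exon, and 2 bases found in the second alone.

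A further pair of forms of Ctnnd1 kept the start codon exon. Ctnnd1-003, which adds a 118-base exon upstream, held 3.77% and 0.0895% in MEF, 8.38% and 7.30% in D3, 2.43% and 6.59% in D6, 15.9% and 16.0% in D9, and 6.18% and 5.19% in ESC. The D9 libraries were again highest, and D9 with MEF was called at 14.0 points (diffSpliceDGE adjusted p = 0.00571), a call lost without MEF replicate 2 (adjusted p = 0.233) and by limma on the ratio (0.141). Ctnnd1-004 was the main form at every stage, from 64.2% and 66.2% in MEF to 50.8% and 44.5% in D9, with 56.4% and 56.2% in ESC. Its difference of -17.5 points between D9 and MEF was not called. The fall of Ctnnd1-001 was therefore accompanied by higher shares of both a form without the start codon exon and a form with it.

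In Enah, 1 of the forms without the 63-base exon had its lowest share in D9, while others without it rose. Enah-201, without the 63-base exon, held 21.7% and 24.0% in MEF, 15.3% and 19.8% in D3, 17.1% and 9.73% in D6, 0.880% and 2.91% in D9, and 15.7% and 15.1% in ESC. D9 libraries were the lowest and did not overlap with any other stage. The change was -20.9 points from MEF to D9 (diffSpliceDGE adjusted p = 9.92e-09), -11.5 from D6 to D9 (adjusted p = 1.91e-05) and 13.5 from D9 to ESC (adjusted p = 1.003e-06). The change from D6 to D9 was -7.83 points without D6 replicate 1, under the minimum, and had an adjusted p of 0.211 by limma on the ratio. Enah-009, the form with the epithelial exon, held 9.87% and 5.87% in MEF, 3.88% and 1.29% in D3, 5.19% and 8.29% in D6, 18.0% and 18.3% in D9, and 10.2% and 12.1% in ESC. D9 was highest and D3 lowest, but no comparison of Enah-009 was called, with an adjusted p of 0.188 for D9 with MEF and 0.212 for D9 with D6 by diffSpliceDGE. The 2 forms differ by 220 bases found in Enah-009 alone, of which 63 are the cassette exon, and by 33 bases found in Enah-201 alone. Enah-003, the form with the most reads, also lacks the 63-base exon. It held 42.5% and 43.6% of the reads in MEF and 55.4% and 55.9% in D9. That change of 12.6 points was not called (diffSpliceDGE adjusted p = 0.960). Enah-003 is 11229 bases long, and its mean share of TPM was 6.65% in MEF and 10.5% in D9. By TPM it was below Enah-013, a retained intron form of 739 bases (26.9% and 26.8%). Enah-202, which lacks the exon as well, rose by 4.92 points from MEF to D9, under the minimum. The fall of Enah-201 was therefore accompanied by higher shares of forms with the exon and of forms without it.

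Slk changed earlier, at D3. Slk-002, the form with the 93-base exon, held 20.9% and 20.03% in MEF, 0% and 0.449% in D3, 3.06% and 2.75% in D6, 7.47% and 4.73% in D9, and 8.02% and 9.49% in ESC. All libraries after MEF were below both MEF libraries, and D3 libraries were the lowest. D3 with MEF was called at -20.2 points (diffSpliceDGE adjusted p = 2.17e-07). In D3 Esrp1 had 8 pooled reads, Esrp2 was at its lowest and the fibroblast markers stood at 6.81% of MEF. A link between any of these levels and the share of Slk-002 was not tested. D9 with MEF, at -14.4 points, was not called (adjusted p = 0.0615). Slk-001, which skips the exon, was not called by diffSpliceDGE in any comparison. However, limma on the ratio to other transcripts called its share higher than MEF in D3, D9 and ESC (adjusted p = 0.00194, 0.0138 and 0.0282). Slk-002 and Slk-001 differ by the 93 bases of the exon and by 3132 bases found in Slk-001 alone, a longer 3′ end. The estimate of both shares therefore also rests on reads from the 3′ end of the gene.

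**Figure D4:**
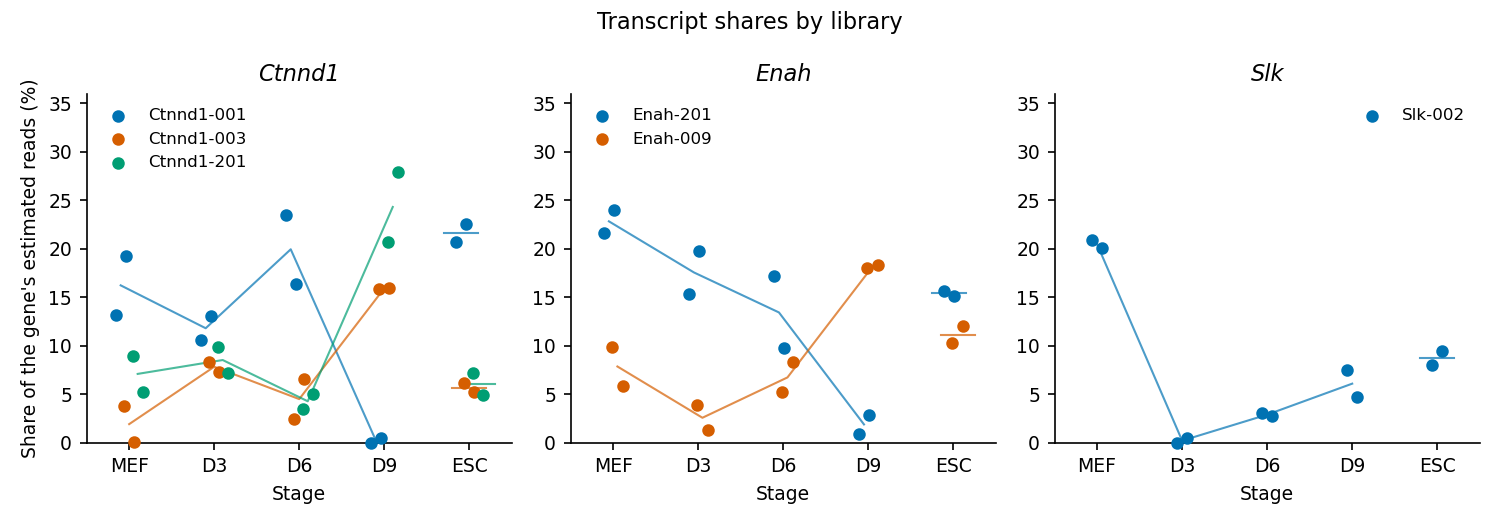
Share of the gene's estimated reads (%) on 6 transcripts of Ctnnd1, Enah and Slk in each library by stage. Points are single libraries, lines join means from MEF to D9 and the bar marks the ESC mean. In D9 Ctnnd1-001 and Enah-201 are near 0 while Ctnnd1-201, Ctnnd1-003 and Enah-009 are at their highest, and Slk-002 is near 0 in D3 already.

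Arhgef11 and Scrib had no called transcript in any comparison by diffSpliceDGE or by limma on the ratio, and none of theirs had an unadjusted p under 0.05 by diffSpliceDGE. Arhgef11-002, which alone holds a 30-base exon, was at 19.0% and 13.3% in MEF, 9.98% and 9.18% in D3, 15.3% and 18.4% in D6, 10.1% and 6.30% in D9, and 13.1% and 9.36% in ESC. The stages did not form an order that went along with the Esrp level. Arhgef11-001 ranged from 34.9% to 50.1% over the 10 libraries. Scrib-003, the form of Scrib with the most reads, ranged from 63.7% to 79.4% of them, with 64.4% and 77.3% in the 2 MEF libraries. Its mean share of TPM in MEF was 32.4%, below the 48.6% of Scrib-005, a form of 423 bases.

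Grouping transcripts by the cassette exon they hold gave 21 exons in the 5 targets, of which 20 had enough informative reads. Inclusion was the share of reads on including transcripts among those that include or skip the exon, without correction for transcript length. In MEF the 93-base exon of Slk had a mean inclusion of 21.1% by reads and 32.0% by TPM. For the 289-base exon of Ctnnd1 these were 89.3% and 89.5%. limma called 0 of 20 exons in D3 against MEF, where 0.446% of the 10546 exons tested were called and 7 of the 20 had an unadjusted p under 0.05. It called 0 of 20 in D6 against D3 and 0 of 20 in D9 against D6, where 0.218% and 0.0664% of all exons were called, with 4 and 5 of the 20 at an unadjusted p under 0.05. In ESC against D9 it called 1 of 20 beside 0.920% of all exons, and in D9 against MEF 2 of 20 beside 1.20%. In ESC against MEF it called 0 of 20 beside 1.08%, with 3 at an unadjusted p under 0.05. edgeR on the including and skipping reads also called 0 wherever limma called 0. In simulated data for D9 with MEF the exon test found 0% of shifts of 20 points and 99.5% of shifts of 40 points over all exons, and 48% and 100% over exons at 5 to 95% mean inclusion alone. The shifted exons were drawn from the middle of the inclusion range. These rates therefore do not describe exons near either end of it, where the same shift is a larger log2 ratio.

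The 289-base exon of Ctnnd1 was included at 87.3% and 91.3% in MEF, 86.5% and 88.4% in D3, 88.0% and 88.0% in D6, 71.7% and 66.0% in D9, and 89.9% and 91.7% in ESC. Both D9 libraries lay below the other 8. The change was -20.4 points from MEF to D9 (limma adjusted p = 0.0450) and 21.9 from D9 to ESC (limma adjusted p = 0.0342), and at -19.1 points D9 with D6 was not called (limma adjusted p = 0.186). Both calls were lost without any single library of the stages compared, at adjusted p of 0.0524 to 0.150 for D9 with MEF and 0.0737 to 0.127 for ESC with D9, and both with protein_coding transcripts alone (0.0734 and 0.0518).

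The other exons of these isoforms were not called. The 118-base exon of Ctnnd1 was included at 4.31% and 0.152% in MEF, 8.94% and 7.85% in D3, 2.93% and 7.13% in D6, 17.5% and 17.6% in D9, and 6.997% and 7.04% in ESC. D9 stood above every other library, and D9 with MEF had a limma adjusted p of 0.197 that fell to 0.00821 without MEF replicate 1. The 63-base exon of Enah was included at 11.7% and 6.95% in MEF, 4.40% and 1.46% in D3, 6.15% and 9.71% in D6, 21.3% and 21.3% in D9, and 12.04% and 14.0% in ESC. D9 was the highest stage and D3 the lowest. Enah-009 is the only including transcript, so this inclusion rests on the same reads as its share and is not a separate reading. The 93-base exon of Slk was included at 21.5% and 20.6% in MEF, 0% and 0.458% in D3, 3.15% and 2.83% in D6, 7.64% and 4.87% in D9, and 8.15% and 9.63% in ESC. It sets Slk-002 against Slk-001 alone and so rests on the same reads as the share of Slk-002. The difference between D3 and MEF of -20.8 points had a limma adjusted p of 0.0760, which fell to 0.00721 and 0.00421 without 1 or the other D3 library, and to 0.0110 with an offset of 5 reads.

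The other call in D9 against MEF was an 843-base exon of Enah (chr1:181921658-181922500), read from a small part of the gene's reads. Exons of 111, 303 and 843 bases share an end here and are set against the same skipping transcript, Enah-006. The 111-base exon, which Enah-003, Enah-009 and Enah-201 hold, was included at 94.9% and 94.0% in MEF and 99.5% and 99.6% in D9, and was not called (5.06 points, limma adjusted p = 0.0508). The 843-base exon was included at 33.2% and 27.5% in MEF, 85.1% and 59.2% in D3, 77.3% and 93.6% in D6, 94.3% and 93.8% in D9, and 70.5% and 70.7% in ESC. All later libraries were above MEF (63.7 points for D9, limma adjusted p = 0.0444). The value rests on that single skipping transcript and on as few as 262 informative reads, against 3436 for the 111-base exon. The call was lost without any single library, at adjusted p of 0.113 to 0.148, and by edgeR on the including and skipping reads (adjusted p = 0.0711).

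**Figure D5:**
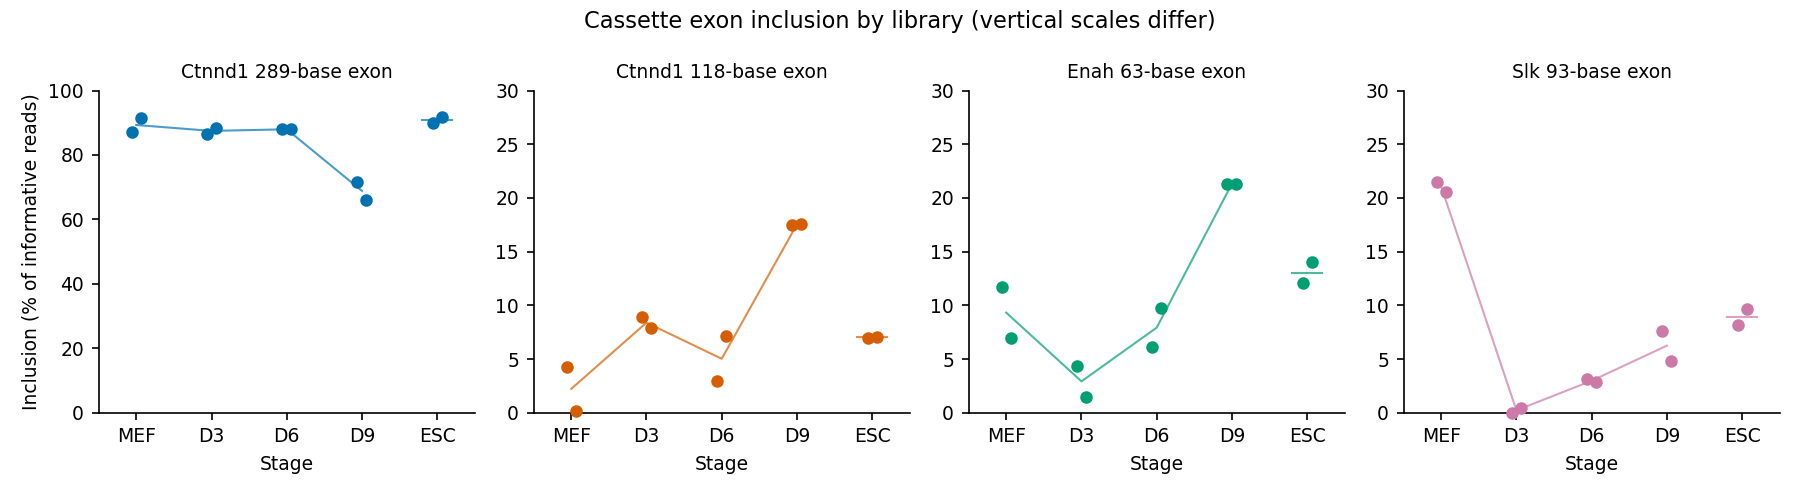
Inclusion (% of informative reads) of 4 cassette exons of Ctnnd1, Enah and Slk in each library by stage, the first panel from 0 to 100% and the others on a narrower scale. Points are single libraries, lines join means from MEF to D9 and the bar marks the ESC mean. The 289-base exon of Ctnnd1 is lowest in D9 (71.7% and 66.0%), the 118-base exon of Ctnnd1 and the 63-base exon of Enah are highest there, and the 93-base exon of Slk is highest in MEF.

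ESC had less Esrp1 and Esrp2 than D9, and more Ctnnd1-001 and Enah-201. Ctnnd1-001 was at 20.7% and 22.5% in ESC against 13.2% and 19.2% in MEF, and Enah-201 at 15.7% and 15.1% against 21.7% and 24.0%. Neither difference between ESC and MEF was called by diffSpliceDGE (5.38 and -7.44 points), though for Ctnnd1-001 both ESC libraries lay above both MEF libraries. The ESC cultures contained feeder cells and carried 8.88% of the MEF level of the fibroblast markers. The part of that RNA in the ESC shares was not tested.

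A further 15 genes with Esrp-responsive exons were read in the same way. In D9 against MEF 4 of the 15 had a called transcript, beside 4.16% of the 10072 genes with 2 or more transcripts tested. The 15 genes held 133 tested transcripts and the 10072 genes 46908, so the listed genes had more transcripts each. The share of all genes is therefore not a like background for them. Counted by transcript, 5 of 133 were called, beside 1.07% of all transcripts. limma on exon inclusion called 1 of the 71 exons tested there, beside 1.20% of all exons. It called 2 of 71 in ESC against MEF, beside 1.08%, and 0 of 71 in every other comparison, beside 0.0664% to 0.920%. Whether the called transcripts named next differ in an Esrp-responsive exon was not tested. Cd44, a hyaluronan receptor whose variable exons are a known Esrp target, gained in Cd44-001 (0.789% and 1.22% of its reads in MEF, 23.6% and 14.0% in D9, diffSpliceDGE adjusted p = 0.0388). Cd44-002 went from 25.2% and 22.1% to 12.7% and 5.99% (diffSpliceDGE adjusted p = 0.0472). The gene total of Cd44 fell at the same time, from 264 and 271 CPM in MEF to 23.1 and 24.1 in D9. Magi1-203, of a junction scaffold gene, went from 3.85% and 11.0% in MEF to 40.2% and 35.0% in D9 (diffSpliceDGE adjusted p = 0.00194), and had risen in D3 already, to 44.4% and 21.03% (adjusted p = 0.00556), with 47.8% and 38.2% in ESC (ESC with MEF, adjusted p = 0.00131). Fgfr1-003, of a fibroblast growth factor receptor, went from 53.8% and 54.6% to 28.9% and 32.3% (diffSpliceDGE adjusted p = 0.0436). Fgfr1-002 was at 6.52% and 8.23% in D9 and at 22.1% and 19.8% in ESC (diffSpliceDGE adjusted p = 0.00378). Osbpl3-007, of an oxysterol-binding protein, went from 7.99% and 12.9% to 0% and 0% (diffSpliceDGE adjusted p = 0.00691). In D6 against D3 and D9 against D6 diffSpliceDGE called 0 of the 133 transcripts tested of these 15 genes. Over all transcripts 0.252% and 0.0959% were called there, and 1.05% and 0.427% of all genes had a called transcript. Of the 133, 13 had an unadjusted p under 0.05 in each of these comparisons. As gene totals, 2 of the 15 were higher and 1 lower in D9 against MEF, where 24.1% and 19.8% of all genes were, with a median log2 fold change of -0.10 beside 0.19 over all genes. The higher pair was Nf2, which encodes the tumour suppressor merlin (86.5 and 88.7 CPM in MEF, 392 and 389 in D9), and Magi1 (20.7 and 19.8 CPM in MEF, 59.7 and 56.8 in D9).

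Of 14 other splicing regulators, 3 were higher and 3 lower in D9 against MEF, shares near the 24.1% higher and 19.8% lower over all genes, with a median of 0.32 beside 0.19. Rbm47, another regulator of epithelial splicing, was at 0.222 and 0.274 CPM in MEF and 0.559 and 0.575 in D6, and then at 5.88 and 6.16 in D9 and 6.72 and 6.38 in ESC. From D6 to D9 it rose by a log2 fold change of 3.40 ± 0.26 (edgeR adjusted p = 1.51e-07). Unlike both Esrp genes, its ESC libraries were not below D9, and the difference between these patterns was not tested. Mbnl1, a muscleblind protein that counts among the mesenchymal regulators, went from 188 and 186 CPM in MEF to 75.3 and 74.6 in D9 and 28.0 and 29.5 in ESC. It was lower than MEF in D9 by a log2 fold change of -1.32 ± 0.03 (edgeR adjusted p = 1.07e-13) and in ESC by -2.70 ± 0.04 (edgeR adjusted p = 2.71e-16). Khdrbs3 fell further in D9, from 33.4 and 34.3 CPM in MEF to 8.29 and 8.46 (-2.01 ± 0.08, edgeR adjusted p = 1.09e-11). Unlike Mbnl1 it was higher in ESC than in D9, at 22.5 and 22.5 CPM. Srsf1 was higher in D9, at 517 and 524 CPM against 248 and 245 in MEF.

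The 10 transcription factors of the epithelial and mesenchymal states were listed as 5 Zeb, Snai and Twist genes and 5 Ovol and Grhl genes. An even split can therefore follow from the make-up of the list and is not a result about it. In D9 against MEF 5 were higher and 5 lower, where 24.1% of all genes were higher and 19.8% lower. The counts were the same in D6 against D3, where 9.26% of all genes were higher and 10.2% lower. Zeb2, a repressor of epithelial genes, fell from 154 and 148 CPM in MEF to 19.3 and 21.2 in D3, before Esrp1 was seen, and stood at 6.00 and 6.17 in D6 and 2.09 and 1.72 in D9 (D3 with MEF -2.90 ± 0.05, edgeR adjusted p = 5.91e-15). Snai2 went from 59.1 and 62.7 CPM in MEF to 10.4 and 11.2 in D3 and 0.294 and 0.726 in D6. Grhl2, an activator of epithelial genes, was at 0.108 and 0.0591 CPM in D3, 16.6 and 15.7 in D6, and 52.0 and 51.7 in D9, and so was above D3 in both later stages. Like Esrp1 it passed the filter through the stages where it is high, so a large difference from D3 was bound to follow. In ESC it was at 13.6 and 13.1 CPM, below D9 as both Esrp genes were. In ESC Snai1, another repressor, was at 8.96 and 10.2 CPM against 0.739 and 0.783 in D9, beside the fibroblast marker level given above.

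Among 9570 protein-coding genes at 20 CPM or more in their highest stage, the profile over the 10 libraries most like that of Esrp1 was that of Ocln, which encodes the tight junction protein occludin (Pearson r 0.998 of log2 CPM). Other genes with a close profile were Atp1b1 (0.996), a subunit of the sodium pump, the claudin gene Cldn6 (0.994) and Ap1m2 (0.994), an epithelial clathrin adaptor. Ocln was at a mean of 0.0859 CPM in MEF, 4.60 in D6, 26.0 in D9 and 6.12 in ESC, with the same order of stages as Esrp1. The profile of Esrp2 was nearest to Slc45a4 (0.995), Entpd6 (0.993), Gga2 (0.977), Igsf9 (0.975) and Tmem2 (0.973). Each of these had a dip in D3 and its peak in D9, as Igsf9 shows with means of 6.57 CPM in MEF, 1.28 in D3 and 38.8 in D9. Esrp1 and Esrp2 were correlated with each other at r 0.885. These r values describe libraries that fall into 5 stages of 2 and carry no test.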

How the data were processed

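RNA-seq of poly(A) RNA was read in 10 libraries, 2 in each of 5 groups taken from the sample titles, with stranded single reads of 50 nt and 1 batch label, per the labels. The authors deposited an estimated count and a TPM value for each of 109617 transcripts per library. The values come from Salmon 0.8.2 and mm10, per the submitters' processing notes, and the index is not given in the sources used here. The deposited estimated counts are not normalized, while the TPM values in the same deposited tables take account of an effective length that was equal across all 10.

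Estimated counts were summed per gene, rounded and filtered with filterByExpr (minimum count 10, minimum total 15), which left 20165 genes. Genes were tested with the quasi-likelihood test of edgeR 4.0.16 over all libraries after TMM scaling, and called where the Benjamini-Hochberg adjusted p was under 0.05 and the log2 fold change 1 or more in either direction. CPM values are on the TMM scale. Transcript shares were tested with diffSpliceDGE of edgeR and exon inclusion with limma 3.58.1 on log2 ratios with an offset of 0.5 read, at the same adjusted p and a change of at least 10 points. An exon needed 20 informative reads in every library and 10 reads on each side in all. All p-values were adjusted over everything tested, in 6 comparisons. Exons and coordinates are those of GENCODE M21, in which 91.3% of the deposited transcripts had the same length. No count was split by strand here.

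The members and the gene lists were chosen with earlier results of these data known. All 7 members were named. Of the transcripts at 10% or more of their gene in some group, and of the exons kept, only a part is given. Genes named from each list are among the 2 largest changes per direction called at 5 CPM or more in a comparison, and not all of these are given. Where the named transcripts of other Esrp-responsive genes are given, they are those called. Likeness was the Pearson correlation of log2 CPM (prior count 2), with the 5 highest genes named except for 1 that is not reported here. Replicates differed by more than sampling noise (chi-square per degree of freedom 2.78 to 5.05), so each library counted as 1 sample. An exact two-sided permutation of 2 libraries against 2 has 0.333 as its smallest p, so none was run.

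On simulated data with 200 changed features for D9 with MEF, the gene test found 100% among 19037 genes and the transcript test 99% among 43020, and these data held no error of read assignment. Alternatives were DESeq2 1.42.0, other filters, scalings and offsets, TPM, limma or edgeR in place of each other, protein_coding transcripts alone, a replicate block and leaving out each library. One alternative, the exon test on exons at 5 to 95% mean inclusion, was chosen after seeing the data. R was 4.3.3.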

Additional observations from a re-analysis of the deposited data

How the results depend on the processing

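Depth limits Esrp1 in MEF and D3, which rests on 3 and 8 pooled reads, and reads of 50 nt leave the split between isoforms that share most of their bases to the estimate of the quantifier. Scaling by library size shifted the median over all genes (log2) from 0.08 to 0.29 in D3 against MEF, from 0.10 to 0.44 in ESC against MEF and from 0.19 to 0.48 in D9 against MEF. The genes called higher and lower then went from 2950 and 2923 to 3809 and 2483, from 5142 and 4148 to 6553 and 3152, and from 4857 and 3994 to 6241 and 3284.

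Without a fold minimum the member genes called were 5 in D3 against MEF, 6 in D6 against D3, 5 in D9 against D6, 7 in ESC against D9, 7 in ESC against MEF and 7 in D9 against MEF. Without each library in turn they were 3 to 4 in ESC against MEF. Single genes lost a call in Arhgef11 (D9 against MEF, -0.82 by library size and -0.96 on log2(TPM + 1)), Esrp2 (ESC against MEF, 0.91 on log2(TPM + 1)) and Scrib (ESC against MEF, 0.97 by DESeq2). Ctnnd1 in D6 against D3 changed sign around 0, at -0.022 by DESeq2, -0.0052 with no low-count filter, -0.0025 with the filter of 10 CPM, -0.029 in the fit to 2 groups and -0.043 to 0.032 when a library was left out. Slk in D3 against MEF was 0.14 by library size.

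Target transcripts called with no minimum change were 2 in D3 against MEF, 2 in D6 against D3 and 4 in ESC against D9. By limma on the ratio they were 2 in D3 against MEF, 0 in D9 against D6, 1 in ESC against D9, 1 in ESC against MEF and 5 in D9 against MEF. Without each library they were 1 to 2 in D9 against D6 and 2 to 3 in D9 against MEF. Called changes of Ctnnd1-001 (D9 against MEF), Enah-201 (D9 against MEF, ESC against D9) and Slk-002 (D3 against MEF) were kept in 7 of 7 alternatives, those of Ctnnd1-001 against D6 and in ESC against D9 in 6 of 7, and that of Ctnnd1-201 in 1 of 7. The uncalled changes of Esrp1-005 (D6 against D3, -49.2 to 9.07 points) and Esrp1-201 (D3 against MEF, 0.0 to 36.7) spanned or reached 0 when a library was left out.

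Target exons called were 1 in D3 against MEF and 1 in D6 against D3 with no minimum change, 1 in D3 against MEF with an offset of 5 reads, 0 in ESC against D9 and 1 in D9 against MEF with protein_coding transcripts alone, and 1 in D9 against MEF by edgeR. They were 3 in D9 against MEF with an offset of 5 reads and with exons at 5 to 95% mean inclusion, where the 303-base exon of Enah was added (limma adjusted p = 0.0331 and 0.0437). Without each library they were 0 to 1 in D3 against MEF, 0 to 1 in D9 against MEF and 0 in ESC against D9. Of changes under 10 points, 28 of 97 in exons and 22 of 77 in transcripts changed sign under some alternative. On TPM, 71 of 100 mean transcript shares and 54 of 100 mean inclusion values moved by more than 1 SD of the 2 libraries.

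The replicate numbers of the titles were not shown to pair samples: deviations of same-numbered libraries were correlated at -0.02 to 0.022 over 10 pairs of groups. With the replicate block, the exons called were 0 in ESC against D9 and 0 in D9 against MEF, and Ctnnd1-201 in D9 against D6 had a diffSpliceDGE adjusted p of 0.0674. The cause of these changes was not tested.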
